A study of Mus musculus with 9 samples.

Results

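Carbonic anhydrases convert carbon dioxide and water into bicarbonate and a proton, and the reverse. The genes described here are the 9 mouse members Car2, Car3, Car4, Car5b, Car8, Car9, Car12, Car13 and Car14, found by their symbols in the files. Of these, 8 had a row among the 19094 genes listed in the files, 6 passed the filter on low counts and were tested, and Car4 was not analysed here. Their RNA was measured by RNA-seq in the mouse cell line 3T3-L1, whose fibroblast-like cells turn into lipid-filled adipocytes in culture. The 9 samples fall into 3 groups of 3, named by the day of differentiation. Day 0 is the confluent preadipocyte before any inducer, day 4 follows induction with dexamethasone, IBMX and insulin and a change to medium with insulin, and day 8 follows a further period in medium with insulin. All groups are one cell line grown in a dish, with no genotype difference. No uninduced culture of day 4 or day 8 is among the 9 samples, so time in culture and induction cannot be told apart. The samples held between 18216114 and 20452144 expected counts, and 3 counts, taken as the detection floor, correspond to 0.147 to 0.165 CPM (counts scaled to depth alone).

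The family is sorted in the cell. Car2, Car3, Car8 and Car13 are cytosolic, Car5b is mitochondrial, Car9, Car12 and Car14 span the plasma membrane with the catalytic domain outside the cell, and Car4 is anchored to the outer face of the membrane. Car2 is a fast enzyme, Car3 is a slow one that is abundant in fat and slow muscle, and Car8 has lost the catalytic activity. In adipocytes, bicarbonate is a substrate of pyruvate carboxylase and acetyl-CoA carboxylase, and the membrane-bound enzymes take part in the handling of acid that leaves the cell.

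The promoters of Car9 and Car12 are shown because both encode membrane enzymes and both rose in each phase of the time course. The windows run from 250 bases before to 50 bases after the RefSeq gene start in GRCm38.p6, at chr4:43506776-43507075 on the plus strand for Car9 and at chr9:66713436-66713735 on the plus strand for Car12. Capitals mark the letters ACGTG, the core of the hypoxia response element, read on either strand (CACGT on the other).

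Car9: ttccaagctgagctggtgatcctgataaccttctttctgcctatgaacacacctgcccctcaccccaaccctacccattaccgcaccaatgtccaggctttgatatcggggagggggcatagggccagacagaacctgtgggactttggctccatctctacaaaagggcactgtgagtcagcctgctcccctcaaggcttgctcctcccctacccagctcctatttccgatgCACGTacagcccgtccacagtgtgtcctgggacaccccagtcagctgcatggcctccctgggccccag

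Car12: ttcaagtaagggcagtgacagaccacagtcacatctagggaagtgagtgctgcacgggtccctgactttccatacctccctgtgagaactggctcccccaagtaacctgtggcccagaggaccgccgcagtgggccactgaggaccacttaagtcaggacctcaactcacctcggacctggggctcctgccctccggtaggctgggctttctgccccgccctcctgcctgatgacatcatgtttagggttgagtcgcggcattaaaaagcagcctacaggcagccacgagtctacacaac

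The Car9 window held 1 match, which began 18 bases before the gene start, and the Car12 window held none. Of the 5 members with a window, 3 held a match: Car9, Car4, which was not analysed here, and Car14, which did not pass the filter on low counts. The Car14 match began 7 bases before and the Car4 match 2 bases after the gene start, so the match was not particular to Car9. The match is a description of these letters and not evidence of a bound factor, since ACGTG or its complement occurred in 19.6% of 32851 windows of the same length.

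The levels were compared as FPKM, fragments scaled to transcript length and sequencing depth, which allows genes of different length to be set side by side. At day 0 the order was Car13, Car5b and Car9, with no overlap between these neighbours. The other 5 members lay below Car9 at no more than 0.07 FPKM and overlapped one another. At day 4 Car5b stood first, followed by Car13 and Car3, again without overlap. Car2 and Car9 overlapped below them, as did Car12 and Car14, and Car8 was lowest. At day 8 the order was Car3, Car5b, Car13, Car9, Car2, Car12, Car14 and Car8, and no ranges of neighbours overlapped. Car8 and Car14 lay at or near the floor of 3 counts in most samples, so their places rest on very few reads. On this per-length scale each day had a different leading gene. In TMM-scaled CPM, which are not divided by length, Car5b led at day 8 as well as at day 4. At day 8 it was at 135.2, 143.2 and 136.9 CPM, against 78.43, 93.47 and 100.3 for Car3.

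**Figure D1:**
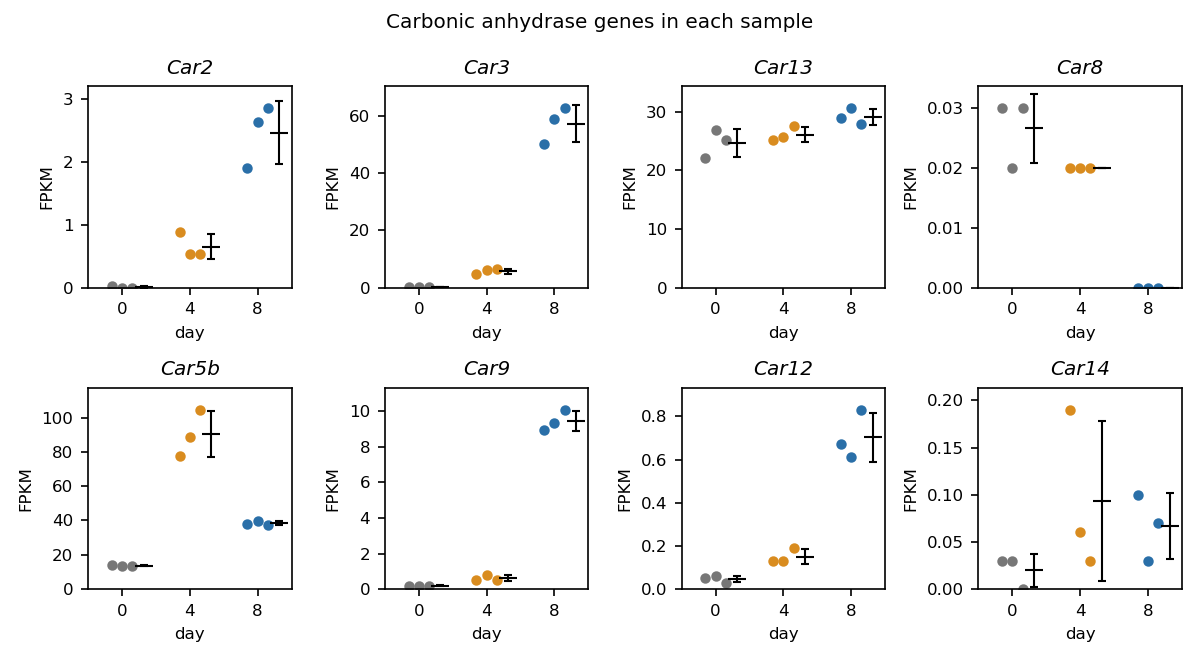
FPKM (vertical axis, a separate scale in each panel) of the 8 carbonic anhydrase genes with a row, by day of differentiation. Points are the 3 samples of a day, horizontal bars the mean and vertical bars 1 SD. Car5b peaked at day 4 with 77.78 to 104.50 FPKM, while Car2, Car3, Car9 and Car12 were highest at day 8.

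The summed FPKM of the 8 genes was 36.41, 40.83 and 39.02 in the day 0 samples, 109.4, 122 and 139.8 at day 4 and 128.4, 142 and 141.9 at day 8. Both later days lay above day 0, and they overlapped each other. Car13 made up 63.7% ± 2.54 of the sum at day 0 (SD, n = 3), Car5b 72.9% ± 1.83 at day 4 and Car3 41.6% ± 2.60 at day 8. The order of the later days depends on the scale, since the summed CPM, which are not divided by length, were 389 at day 4 and 325.4 at day 8, against 101.1 at day 0.

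**Figure D2:**
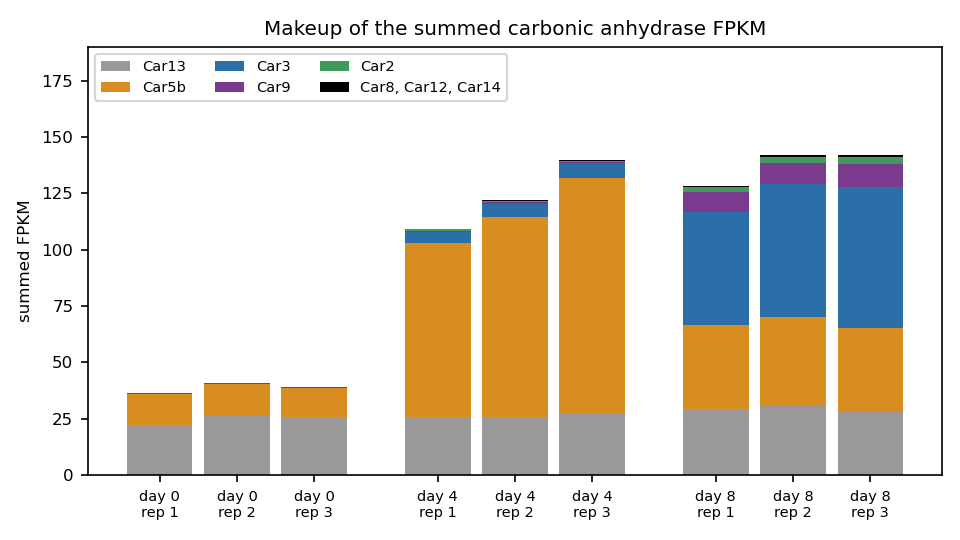
Summed FPKM of the carbonic anhydrase genes in each of the 9 samples, stacked by gene. Car13 and Car5b fill the day 0 bars, Car5b takes 71.1% to 74.7% of the day 4 bars, and Car3 takes 39% to 44.2% of the day 8 bars.

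Differences between days were tested with edgeR's quasi-likelihood test over all 13154 tested genes. A gene is said to have risen or fallen, and is called, where its adjusted p was under 0.05 and it changed more than 2-fold. Log2 fold changes are given ± 1 SE from 3 samples per day. In the early phase (day 4 minus day 0), 5 of the 6 tested members rose (Car2, Car3, Car5b, Car9 and Car12) and none fell, where 17.8% of all tested genes were called, 9.77% as higher and 7.98% as lower. In the late phase (day 8 minus day 4), Car2, Car3, Car9 and Car12 rose and Car5b fell, where 7.05% of all tested genes were called, 4.24% as higher and 2.81% as lower. Over the whole process (day 8 minus day 0), the same 5 members as in the early phase rose, where 18.0% were called, 10.3% as higher and 7.70% as lower. The 3 comparisons share samples. Of the tested members, 4 (Car2, Car3, Car9 and Car12) had under 10 counts in every day 0 sample and passed the filter through the later days, so the count of members is a description and not a result about the family.

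**Figure D3:**
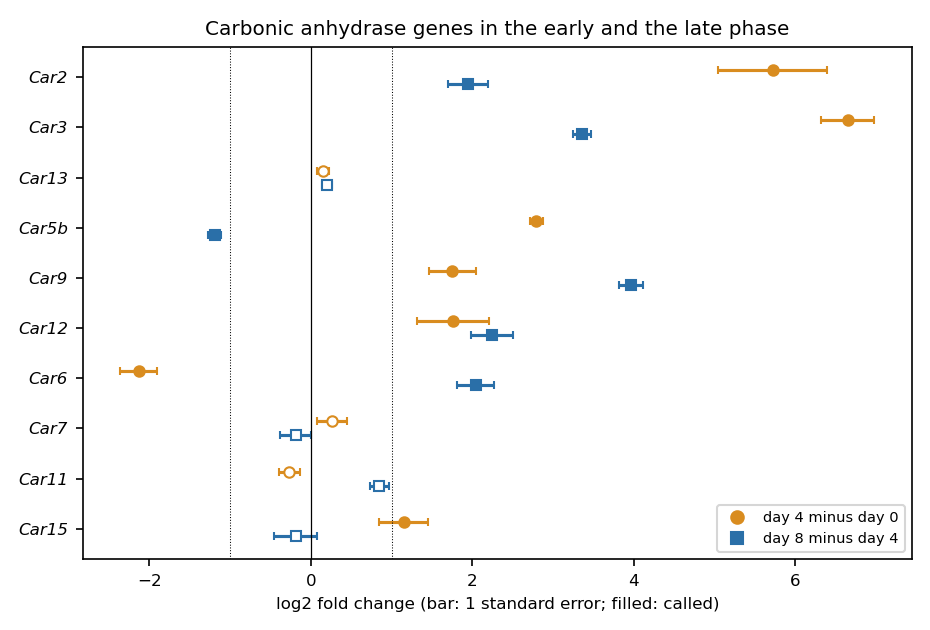
Log2 fold change (horizontal axis) of the 6 tested carbonic anhydrase genes and of 4 further genes of the family, for day 4 minus day 0 (circles) and day 8 minus day 4 (squares). Bars are 1 standard error, filled symbols are called and dotted lines mark a 2-fold change. Car5b rose and then fell, and Car6 fell and then rose.

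Car3, the cytosolic enzyme known for its abundance in fat, rose from day 0 to day 8 by a fitted log2 10.02 ± 0.22 (edgeR adjusted p = 1.8e-15), a size that rests on 5 day 0 counts and was 8.55 in limma on log2(FPKM + 0.1) and 5.78 on log2(FPKM + 1). It was at 0.03, 0.07 and 0.06 FPKM at day 0, at 4.74, 6.04 and 6.46 FPKM at day 4 and at 50.07, 59.11 and 62.69 FPKM at day 8. No days overlapped, and the day 0 values rest on 1, 2 and 2 counts. The summed counts went from 5 at day 0 to 528 at day 4, a depth-corrected ratio of 108 with an exact 95% interval of 46.1 to 335, which covers counting error only. From day 4 to day 8 Car3 rose by a further log2 3.36 ± 0.11 (edgeR adjusted p = 7e-13), or 10.3-fold. Both steps were thus large, and most of the final level was reached after day 4.

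Car2, the fast cytosolic enzyme, rose along with Car3 but stayed at a low level. It was at 0.03, 0 and 0 FPKM at day 0, at 0.88, 0.54 and 0.54 FPKM at day 4 and at 1.90, 2.64 and 2.85 FPKM at day 8. The days did not overlap. A single count across the day 0 samples stands against 71 at day 4, a ratio of 72.9 with an exact 95% counting interval of 12.7 to 2920, and the fitted early log2 fold change of 5.72 became 7.56 without day 0 replicate 1, the sample that held that count. In limma that fold change was 2.76 on log2(FPKM + 0.1) and 0.70, without a call, on log2(FPKM + 1). The late rise rests on more counts and was log2 1.95 ± 0.25 (edgeR adjusted p = 8e-06).

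Car2 and Car3 are neighbours on chromosome 3, in a cluster that RefSeq (GRCm38.p6) orders as Car13, Car1, Car3 and Car2, with pseudogenes and a long noncoding RNA between. The cluster did not move as a block. Car13, a cytosolic enzyme at its other end, was at 22.15, 26.84 and 25.14 FPKM at day 0, at 25.16, 25.65 and 27.56 at day 4 and at 28.96, 30.60 and 27.92 at day 8. The first 2 groups overlapped, and day 8 lay above both. Between days it differed by log2 0.15 ± 0.07 in the early phase (edgeR adjusted p = 0.053), 0.20 ± 0.06 in the late phase (adjusted p = 0.017) and 0.35 ± 0.06 over the whole process (adjusted p = 0.00014), under the 2-fold threshold in each. Car1, the enzyme best known from red blood cells, did not pass the filter, with 0, 0 and 0 counts at day 0, 5, 1 and 4 at day 4 and 6, 20 and 10 at day 8. No 50-base stretch of the Car2, Car3 or Car13 transcripts occurred in transcripts of another gene (GENCODE vM21), so reads of the 3 can be told apart at that length.

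Car8, the cytosolic member without catalytic activity, did not pass the filter. Its estimated counts were 3.05, 1.70 and 3.86 at day 0, 1.95, 2.26 and 2.09 at day 4 and 0 in all 3 samples at day 8. These values lie at or near the floor of 3 counts per sample, so no fold change is given.

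Car5b, the mitochondrial enzyme, was the tested member that rose and then fell. It was at 13.89, 13.61 and 13.58 FPKM at day 0, at 77.78, 88.80 and 104.50 FPKM at day 4 and at 37.77, 39.65 and 37.44 FPKM at day 8. The days did not overlap, and day 8 stayed above day 0. The early log2 fold change was 2.79 ± 0.08 (edgeR adjusted p = 5.9e-14) and the late one -1.19 ± 0.08 (adjusted p = 3.2e-09), which left 1.59 ± 0.08 over the whole process (adjusted p = 5e-11). Of its 50-base stretches, 3.79% also occurred in transcripts of other genes.

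Among the enzymes that fix or respond to bicarbonate, 8 of the 10 listed genes were tested. In the early phase 4 rose and none fell, where 9.77% of all tested genes rose. The median log2 fold change was 0.98 against 0.02 over all tested genes. Pcx, the mitochondrial pyruvate carboxylase, was at 18.20, 20.12 and 18.80 FPKM at day 0, at 235.20, 269.67 and 259.61 FPKM at day 4 and at 261.71, 285.67 and 284.57 FPKM at day 8. It rose by log2 3.81 ± 0.07 in the early phase (edgeR adjusted p = 1.3e-16) and, unlike Car5b, was not called in the late phase (log2 0.17 ± 0.06). Pcca and Pccb, the subunits of mitochondrial propionyl-CoA carboxylase, rose by log2 1.27 ± 0.08 and 1.17 ± 0.06, and Mccc2, a subunit of methylcrotonyl-CoA carboxylase, by 1.12 ± 0.07. The acetyl-CoA carboxylases Acaca, with log2 0.11 ± 0.05, and Acacb, with 0.24 ± 0.10, were not called. None of the 8 was called in the late phase by edgeR or DESeq2 (median 0.22 against -0.01 over all tested genes), although 6 had an unadjusted p under 0.05. Over the whole process 5 rose and none fell (median 1.07 against -0.02), where 10.3% of all tested genes rose.

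The dehydrogenases that release carbon dioxide were also read as a list, and all 14 were tested. Of these, 6 rose early and none fell (median log2 fold change 0.90), where 9.77% of all tested genes rose (median 0.02). From day 0 to day 8, 6 rose (median 0.98), where 10.3% of all tested genes rose (median -0.02). None was called in the late phase by edgeR or DESeq2 (median 0.00), although 11 had an unadjusted p under 0.05. The early rises were Idh3a, a subunit of the citrate cycle isocitrate dehydrogenase, at log2 2.02 ± 0.08, Bckdhb and Bckdha, subunits of the branched-chain keto acid dehydrogenase, at 2.01 ± 0.08 and 1.34 ± 0.07, Pdhb, a subunit of pyruvate dehydrogenase, at 1.55 ± 0.06, and the isocitrate dehydrogenases Idh2 at 1.28 ± 0.05 and Idh1 at 1.19 ± 0.05. Idh2 had the most negative late value of the list, at log2 -0.78 ± 0.05, under the 2-fold threshold.

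Car9, a membrane enzyme widely used as a marker of hypoxia, rose mainly after day 4. It was at 0.20, 0.20 and 0.18 FPKM at day 0, at 0.53, 0.80 and 0.52 FPKM at day 4 and at 8.96, 9.35 and 10.08 FPKM at day 8. The days did not overlap. The early log2 fold change was 1.75 ± 0.29 (edgeR adjusted p = 5.5e-05) and the late one 3.97 ± 0.15 (adjusted p = 4.7e-12), or 15.7-fold. In limma on log2(FPKM + 1) the early value was 0.43, without a call, and the late one 2.70, still called. The day 0 samples held 8, 7 and 7 counts and the day 4 samples about 21, 32 and 20, so the late step rests on more reads than the early one. Of the 50-base stretches of Car9, 4.76% also occurred in transcripts of other genes.

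The list of hypoxia-response genes was read beside Car9. Of its 14 genes, all tested, 7 rose in the early phase, 8 in the late phase and 11 over the whole process, and none fell. Of all tested genes, 9.77% rose in the early phase, 4.24% in the late phase and 10.3% over the whole process. The list's median log2 fold change was 0.93 early and 1.10 late, against 0.02 and -0.01 over all tested genes. In the late phase the called genes were Ankrd37 at log2 1.85 ± 0.21, Ndrg1 at 1.79 ± 0.20, the oxygen-sensing prolyl hydroxylase Egln3 at 1.69 ± 0.12, the glucose transporter Slc2a1 at 1.45 ± 0.06, the pyruvate dehydrogenase kinase Pdk1 at 1.33 ± 0.09, Bnip3 at 1.23 ± 0.12, the glycolytic enzyme Pgk1 at 1.11 ± 0.09 and the collagen prolyl hydroxylase P4ha1 at 1.08 ± 0.07, each below the 3.97 of Car9. Some had moved otherwise before day 4: Egln3 had already risen by log2 3.88 ± 0.17, whereas Slc2a1 had a log2 fold change of -0.55 ± 0.06, which was not called. Hif1a, which encodes the oxygen-regulated factor itself, was at -0.19 ± 0.05 and -0.06 ± 0.05 in the 2 phases, and Adm at -0.43 ± 0.08 and 0.25 ± 0.09, without a call. The RNA of Hif1a does not measure the protein, whose level is set largely by its breakdown. Of the 13 list genes with a promoter window, 11 held ACGTG on either strand (84.6%), against 21.8% of 27025 genes. Apart from Hif1a, the list is made of known hypoxia targets, some of them known through such elements, so this share says nothing about Car9.

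**Figure D4:**
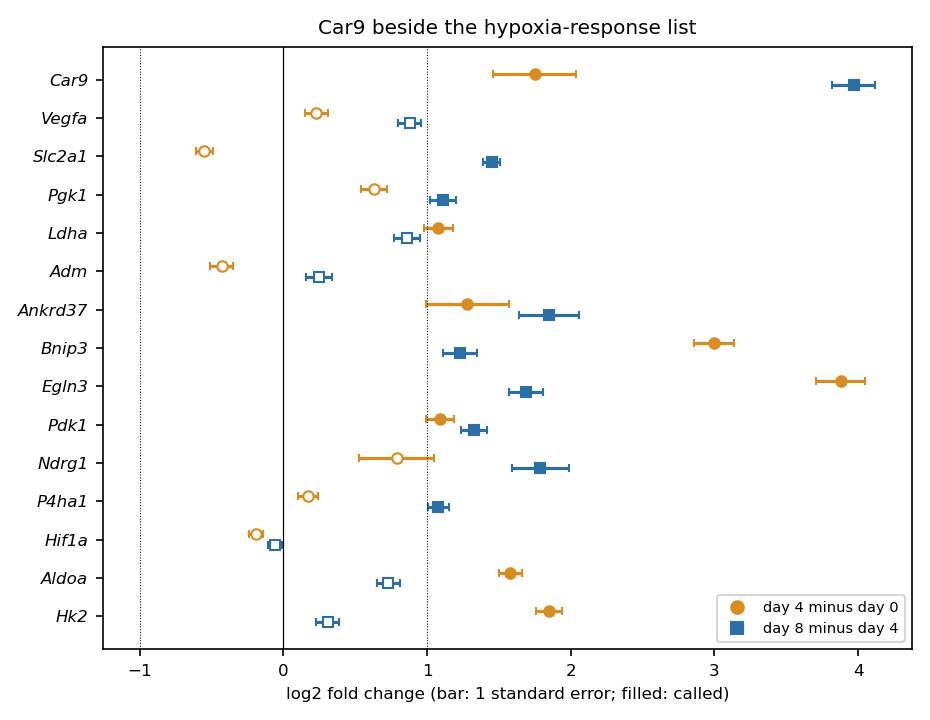
Log2 fold change (horizontal axis) of Car9 and the 14 hypoxia-response genes for day 4 minus day 0 (circles) and day 8 minus day 4 (squares). Bars are 1 standard error, filled symbols are called and dotted lines mark a 2-fold change. Car9 has the largest late value at 3.97, and Egln3 the largest early value at 3.88.

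Car12, a further membrane enzyme, rose in both phases from and to low levels. It was at 0.05, 0.06 and 0.03 FPKM at day 0, at 0.13, 0.13 and 0.19 FPKM at day 4 and at 0.67, 0.61 and 0.83 FPKM at day 8. The days did not overlap, but the summed counts were only 10, 34 and 157. The early log2 fold change was 1.76 ± 0.45 (edgeR adjusted p = 0.0024) and the late one 2.24 ± 0.26 (adjusted p = 3.9e-06). Car12 entered the early test only through its day 8 counts. With day 0 and day 4 samples alone it did not pass the filter and was not tested. Car14, the third membrane enzyme with a row, did not pass the filter: its estimated counts ran from 0 to 1.03 at day 0, from 1.04 to 6.23 at day 4 and from 1.04 to 3.11 at day 8, all at or near the floor of 3 counts except for 1 sample at day 4, and 15.7% of its 50-base stretches also occur in Aph1a. The early calls of Car2, Car9 and Car12 were lost when low values were damped, with log2 fold changes of 0.70, 0.43 and 0.14 in limma on log2(FPKM + 1). Car12 also lost its late call (0.57) and its call over the whole process (0.70) there, and its early call (0.77) on log2(FPKM + 0.1).

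Of the 9 further genes of the family, 4 were tested. Car6, the secreted enzyme known from saliva, went opposite to Car5b. It was at 5.41, 3.54 and 3.40 FPKM at day 0, at 0.94, 0.90 and 0.86 FPKM at day 4 and at 3.12, 3.41 and 4.23 FPKM at day 8. Day 4 lay below both other days, which overlapped. It fell in the early phase (log2 -2.13 ± 0.23, edgeR adjusted p = 3.9e-07) and rose in the late phase (2.04 ± 0.23, adjusted p = 2.3e-06). Car15 rose in the early phase (1.15 ± 0.30, adjusted p = 0.0031), while Car7 and Car11 were called in none of the 3 comparisons. Car11, a member without catalytic activity, had its largest value in the late phase at log2 0.85 ± 0.12. The median of the 4 was -0.00 in the early phase and 0.33 in the late phase.

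Bicarbonate transporters and the exporters of protons and lactate carry the products of these reactions across membranes. Of 14 bicarbonate transporters 7 were tested: 2 rose and 1 fell in the early phase (median log2 fold change -0.22), and none rose and 1 fell in the late phase (median 0.05). Of all tested genes, 9.77% rose and 7.98% fell early, and 4.24% rose and 2.81% fell late. Slc4a4, a sodium bicarbonate cotransporter, rose early by log2 1.39 ± 0.11 (edgeR adjusted p = 8.8e-09), with day 0 samples between 0.93 and 1.15 FPKM and day 4 samples between 2.61 and 2.81 FPKM. Slc4a5 rose early (2.99 ± 0.35) and fell late (-2.81 ± 0.34), as Car5b did, but did not exceed 0.39 FPKM. Slc4a8 fell early (-2.66 ± 0.26) from at most 0.27 FPKM. Slc4a2, an anion exchanger and the most abundant of the list, was at 50.73 to 52.61 FPKM at day 0 and 31.28 to 34.09 at day 8, a log2 fold change of -0.56 ± 0.05 that was not called.

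Of 15 genes for proton and lactate export 9 were tested. In the late phase 2 of the 9 rose (median log2 fold change 0.07), where 4.24% of all tested genes rose. None of the 9 was called in the early phase by edgeR or DESeq2 (median 0.05), although 6 had an unadjusted p under 0.05. Bsg, the chaperone that brings lactate transporters to the membrane, was at 319.96 to 332.04 FPKM at day 0, at 432.97, 465.55 and 488.86 FPKM at day 4 and at 888.77, 1016.26 and 1171.02 FPKM at day 8, a late rise of log2 1.19 ± 0.08 (edgeR adjusted p = 6.4e-09). Slc16a3, the lactate exporter of glycolytic cells, rose by 1.20 ± 0.26 (adjusted p = 0.0014) to 0.98 to 1.24 FPKM.

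The genes with the most similar profile were sought among 11460 tested genes outside the family, by the smallest Euclidean distance between centred log2 CPM over the 9 samples. A prior count of 2 was used for these log2 CPM, which damps differences from values near 0. For Car3 these were Hcar2 (distance 1.26), Adrb3 (1.62), the beta-adrenergic receptor typical of fat cells, and Slc36a2 (1.65). Their early log2 fold changes of 7.49, 9.34 and 8.78 were larger than the 6.65 of Car3. Trf (0.791), which encodes transferrin, Mgll (1.05), the monoglyceride lipase, and Siglec1 (1.07) were nearest to Car2. Their early log2 fold changes of 4.17, 3.59 and 3.91 were smaller than the 5.72 of Car2. Hacd2 (0.451), Acadm (0.508), a mitochondrial fatty acid dehydrogenase, and Nt5dc2 (0.695) were nearest to Car5b, and each had a positive early and a negative late log2 fold change (Acadm 2.71 and -0.81). Car9 lay closest to Pla2g2e (0.853), Tusc5 (0.961) and Krt19 (1.02), and Car12 to 8430408G22Rik (0.537), Tmem45b (0.752) and Sbsn (0.958). None of these belongs to the hypoxia-response list.

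The labels call every sample an adipocyte, but at day 0 Adipoq, Plin1 and Cfd were at no more than 0.63 FPKM. Other adipocyte markers were present before induction, with Lpl at 113.52 to 121.32, Pparg at 11.4 to 11.7, Fabp4 at 8.21 to 11.26 and Cebpa at 5.54 to 6.26 FPKM. All 7 adipocyte markers rose in the early phase and 1, Cfd, rose again in the late phase. Their summed FPKM was 143.2 to 148.3 at day 0, 5294, 6211 and 7572 at day 4, and 8002, 8774 and 8726 at day 8, led by Lpl at day 0 and by Fabp4 later. Within day 4 the sums had the same order over the samples as Car5b, Car3 and Car13, but not as Car2, which was highest in replicate 1, or Car9, which was highest in replicate 2. The part of the adipocyte share in those values was not tested. In such bulk samples, fewer cells of a type and less RNA per cell cannot be told apart. Of the preadipocyte or fibroblast markers, Dlk1 fell early and rose late, while Pdgfra had log2 fold changes of the opposite sign, 0.84 ± 0.05 and -0.59 ± 0.05, that were not called. The sum of the 5 genes, led by Col1a1, lay between 2695 and 2802 at day 0, between 1695 and 1844 at day 4 and between 3019 and 3066 at day 8.

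Markers of other cells that express these enzymes were low. The skeletal muscle genes Myh1, Myh4 and Ckm were at 0.03 FPKM or less in every sample. The muscle list held no gene particular to slow muscle, where Car3 is abundant. Acta1 rose late (log2 1.16 ± 0.31, edgeR adjusted p = 0.0062) and Tnnt3 fell early (-1.08 ± 0.31, adjusted p = 0.0059), and the sum of the 5 muscle genes with a row ran from 1.09 to 2.77 FPKM, against 50.07 to 62.69 FPKM for Car3 at day 8. The 3 erythroid genes with a row summed to 0.32 to 2.61 FPKM, with most of it from Hba-a1, which fell in the early phase (-2.29 ± 0.46, adjusted p = 0.00036). Macrophage markers summed to 1.37 to 2.19 FPKM, mostly Cd68. Of their 2 tested genes none was called by edgeR or DESeq2, and 1 had an unadjusted p under 0.05 in the early phase. Endothelial markers summed to 0.16 to 0.33 FPKM, and Pecam1 rose late (1.01 ± 0.35, adjusted p = 0.027), with days whose FPKM ranges overlapped and no call by DESeq2. Over the whole process Pecam1 rose by 1.10 ± 0.35 (edgeR adjusted p = 0.011), with FPKM ranges apart and a call by DESeq2. Cdh5, which did not pass the filter, was at 0.12 to 0.18 FPKM at day 0 and at 0.01 to 0.02 FPKM at day 8, and Kdr did not exceed 0.05 FPKM. The brown adipocyte markers Ucp1 and Cidea did not exceed 0.06 and 0.26 FPKM.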

How the data were processed

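The authors removed low-quality and adaptor reads, mapped the rest with HISAT/Bowtie2 and estimated expected counts and FPKM per gene with RSEM, both deposited for each sample. The submitters' processing notes name CASAVA 1.4 and Bowtie2, and the genome build is not given in the sources used here. The labels name a library kit of another platform than the study's methods, and an extraction text for another tissue. Cells were pooled per stage and samples made from RNA mixtures, so p-values measure only the spread between these samples, which may be technical. Of the deposited expected counts, 29.8% were not whole. They were rounded, filtered with filterByExpr by day, scaled with TMM and fitted in 1 quasi-likelihood model of all 9 samples (R 4.3.3, edgeR 4.0.16), with Benjamini-Hochberg adjustment over 13154 genes. In counts simulated for the early phase, all 200 genes changed 4-fold were recovered with 0 false calls. The changed genes were drawn above a minimum mean level, and every gene was given the same spread. The simulation therefore says nothing about calls of members with few counts at day 0. Alternatives used DESeq2 1.42.0, limma 3.58.1, other scalings and filters, and each sample left out. Of 19094 gene IDs, 19040 matched the RefSeq table, and 26 symbols turned into dates were restored by ID. Promoters are from RefSeq (GRCm38.p6). The members and gene lists were chosen with earlier results of these data known. The named genes are the members, the genes of the lists and markers, and for each called member the 3 nearest genes whose mean log2 CPM reached 1. A gene of the lists is not reported here.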

Additional observations from a re-analysis of the deposited data

How the results depend on the processing

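Under the alternatives that refit the data, 347 log2 fold changes of the tested members could be computed, and 13 could not because the member was then not tested. Of the 347, 341 kept their direction and side of the threshold, 6 lost the call and 0 reversed, and all 162 with 1 library left out were kept. The 162 include values where the omitted library was of the day outside the comparison, which hardly moved the fold change. The count of called members was 5 in each comparison with any 1 library left out (lowest 5, highest 5). In the early phase it was 2 with limma on log2(FPKM + 1), which kept Car3 and Car5b, and it was 1 (Car5b) in each of the 3 comparisons when at least 10 counts were required in every sample, where only Car5b and Car13 remained testable. The early count was 4, without Car12, with limma on log2(FPKM + 0.1). It was also 4 with only the samples of the 2 days compared, where Car12 was not tested. Without a filter on low counts Car8 was also called over the whole process, as lower (edgeR adjusted p = 0.0127), from values at or near the floor. Calls over all genes in the early phase, late phase and whole process numbered 2335, 928 and 2369, against 1273, 360 and 1281 with limma on log2(FPKM + 1) and 9106, 5953 and 9339 on the adjusted p alone, and the stricter filter left 483 in the late phase. The summed level of the members was 101.1, 389 and 325.4 on the CPM scale at day 0, 4 and 8, against 38.75, 123.8 and 137.4 FPKM. With 1 sample of the day left out the FPKM sums ran from 37.72 to 39.92, from 115.7 to 130.9 and from 135.2 to 141.9. On the adjusted p alone Car13 was also called, as higher, in the late phase and over the whole process. Library size alone moved the median of all genes over the whole process by -0.11 and Car13 from 0.35 to 0.24. Samples share a replicate number across days, but same-numbered samples did not deviate together by the criterion used, a correlation over 0.1 in every pair (r from -0.0348 to 0.075 over 9 pairs, mean 0.0307 against -0.0154 for other numbers, with 4 of 9 samples correlating best with their own number at both other days). Deviations were taken from each day's mean, so the mean for other numbers follows from that for the same number. It is not a separate comparison. A replicate block left 5 called members in each comparison and changed no other call of a member. Depth limits Car2, Car3, Car8, Car12 and Car14 at day 0, which rest on under 5 counts per sample.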
